A study of Mus musculus with 40 samples.

Results

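The 9 inflammatory CC chemokines Ccl2, Ccl7, Ccl12, Ccl8, Ccl3, Ccl4, Ccl5, Ccl6 and Ccl9 were followed across every group of 3 expression tables. They were chosen by name and not by a cut on their values, though with earlier results of these data known. They are 9 of the 54513 genes listed in each table. CD11b+ cells, which in the brain are microglia and infiltrating monocytes, macrophages and other myeloid cells, were FACS-sorted from the hemispheres of adult male mice, and their poly(A) RNA was sequenced. GL261, a murine glioma line that carried a fluorescent protein and luciferase in this study, was implanted into C57BL/6 mice, and U87-MG, a human glioblastoma line, into athymic nude mice, which lack a thymus and hence most T cells.

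At 21 days post-implantation (DPI), the GL261 table held naïve mice without a tumor and tumor-bearing mice given vehicle (water), 7aaRGD or 7aaRAE, with 3 samples per group and 2 animals pooled in each. 7aaRGD is a peptide with the RGD motif that integrins bind, and 7aaRAE is the control peptide in which RAE stands in place of that motif. Both were delivered into the tumor by an osmotic pump from the day of implantation. The 28 DPI table held 4 vehicle, 4 7aaRGD, 3 anti-PD-1 (aPD-1) and 3 7aaRGD + aPD-1 samples, each from 1 animal. The aPD-1 antibody blocks a T cell checkpoint, and by the study's methods the groups without it received control IgG. The labels name nude mice for these 28 DPI samples, whereas the study's methods give GL261 in C57BL/6 mice, so the strain is taken from the methods. The U87-MG table held vehicle, 7aaRGD and 7aaRAE at 21 DPI, with 3 samples per group and 2 animals in each. GL261 and U87-MG are single established lines, and each table describes 1 tumor model.

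CC chemokines are small secreted proteins that bind G protein-coupled receptors on leukocytes and direct their migration. Ccl2, Ccl7 and Ccl12 (with Ccl8, the monocyte chemoattractant group) draw monocytes out of the blood mainly through Ccr2, while Ccl3, Ccl4 and Ccl5 draw monocytes, T cells and NK cells. In brain tumors such chemokines are made by microglia and macrophages as well as by other cells, and many of them are switched on by NF-kB or interferon signaling.

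All 9 genes lie in 1 cluster on chromosome 11 (mm10). Ccl2 (chr11:82035571-82037453), Ccl7 (chr11:82045712-82047525), Ccl12 (chr11:82101845-82103400) and Ccl8 (chr11:82115185-82116799) are on the plus strand within 81.2 kb. A gap of 1.41 Mb separates them from Ccl5 (chr11:83525778-83530518), Ccl9 (chr11:83572919-83578636), Ccl6 (chr11:83587882-83593087) and Ccl3 (chr11:83647844-83649355) on the minus strand and Ccl4 (chr11:83662584-83664683) on the plus strand, which together span 138.9 kb. Promoters of 5 members were found in the RefSeq promoter table (GRCm38.p6), and 4 are shown here because they belong to neighbors whose levels had a low (Ccl12 and Ccl8) or a high (Ccl6 and Ccl9) correlation. Each is the 250 bases before the transcription start, 5′ to 3′ on the strand of the gene, and capitals mark matches on either strand to TATAAA, to TGANTCA (the AP-1 motif) and to the NF-kB consensus.
Ccl12, chr11:82101595-82101844, plus strand: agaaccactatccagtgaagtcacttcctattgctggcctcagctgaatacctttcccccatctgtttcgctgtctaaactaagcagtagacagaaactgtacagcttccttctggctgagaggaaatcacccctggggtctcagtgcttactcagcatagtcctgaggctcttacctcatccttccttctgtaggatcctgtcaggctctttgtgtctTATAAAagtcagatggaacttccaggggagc
Ccl8, chr11:82114935-82115184, plus strand: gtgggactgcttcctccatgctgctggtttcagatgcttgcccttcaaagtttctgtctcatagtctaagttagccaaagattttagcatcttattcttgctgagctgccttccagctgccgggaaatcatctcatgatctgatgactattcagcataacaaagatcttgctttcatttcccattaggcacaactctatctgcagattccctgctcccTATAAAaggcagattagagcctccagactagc
Ccl9, chr11:83578637-83578886, minus strand: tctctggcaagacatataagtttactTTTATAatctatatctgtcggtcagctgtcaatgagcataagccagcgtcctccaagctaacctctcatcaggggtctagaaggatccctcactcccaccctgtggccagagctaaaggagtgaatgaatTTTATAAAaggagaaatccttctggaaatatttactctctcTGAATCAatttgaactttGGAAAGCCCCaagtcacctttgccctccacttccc
Ccl6, chr11:83593088-83593337, minus strand: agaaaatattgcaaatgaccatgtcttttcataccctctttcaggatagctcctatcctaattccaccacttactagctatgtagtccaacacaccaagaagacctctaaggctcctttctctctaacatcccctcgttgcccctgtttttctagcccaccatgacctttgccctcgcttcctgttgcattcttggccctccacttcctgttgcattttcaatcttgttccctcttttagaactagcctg
The promoters of Ccl12 and Ccl8 each held 1 TATAAA, which began 31 and 32 bases before the start, and no match to the other motifs or to CCAAT, which was searched too. The Ccl9 window held TATAAA at 3 places (overlapping at 94 and 92 bases before the start, and once further upstream), 1 TGANTCA, which reads on both strands, and 1 NF-kB match that began 35 bases before the start. The Ccl6 window, and that of Ccl3, held none of these. Of all 32851 windows of this length, 12.4% held TATAAA, 6.75% TGANTCA, 3.9% the NF-kB motif and 33.8% CCAAT.

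Values are RPKM, read counts scaled to gene length and library size, and the scaling to length lets levels of different genes be set side by side within a table. The 3 tables were normalized separately, and levels in different tables were not tested against each other. Read depth per sample is unknown. Microglial markers were present in all samples: the summed level of 10 microglial markers was 17015 to 17694 RPKM in naïve mice, 1425 to 2066 RPKM in vehicle samples at 21 DPI and 8988 to 11205 RPKM in U87-MG vehicle samples. The summed level of 9 T cell markers stayed between 0.397 and 20 RPKM in all samples, and in every U87-MG sample Cd3e, Cd3g, Cd8a and Cd8b1 were under 0.05 RPKM. Differences are on the log2(RPKM + 1) scale with their SE, and were tested with limma, adjusted over all protein-coding genes that averaged 1 RPKM or more in the samples compared. All 9 members passed that filter in each table.

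In naïve mice the chemokines of the highest level were Ccl3, a ligand of Ccr1, at 57.1 ± 0.593 RPKM (SD, n = 3), and Ccl6, a myeloid chemokine and Ccr1 ligand, at 49.1 ± 3.73 RPKM. Ccl4, the close relative of Ccl3, followed at 44.4 ± 1 RPKM. Each of these 3 stood apart from the next in all samples, while Ccl9 and Ccl12 (33.7 ± 1.77 and 32.3 ± 3.24 RPKM) overlapped. Ccl2 and Ccl7, near 6 RPKM, overlapped too, and Ccl8 and Ccl5 were lowest at 1.82 ± 0.834 and 1.6 ± 0.611 RPKM. The 9 members summed to 232 ± 9.86 RPKM, of which Ccl5 made up 0.697%.

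In GL261 tumors with vehicle the order was different. At 21 DPI the members summed to 1309 ± 299 RPKM (SD, n = 3) and Ccl5 made up 37.6% ± 18.5 of that sum. Its mean was the highest, but it overlapped with Ccl8, which was above it in vehicle replicate 1 (598 against 271 RPKM). At 28 DPI the sum was 619 ± 127 RPKM (SD, n = 4), and Ccl5 (165 ± 72.4 RPKM) overlapped with Ccl3 (149 ± 32.6 RPKM) at the top, with Ccl2 (11.3 ± 3.94 RPKM) and Ccl7 (4.05 ± 1.33 RPKM) lowest and apart from each other. In U87-MG tumors with vehicle the sum was 862 ± 75.9 RPKM (SD, n = 3) and Ccl12, a mouse chemokine related to Ccl2, made up 46.8% ± 7.6 of it. There Ccl12 was at 406 ± 93.2 RPKM, apart from Ccl3 (162 ± 36.5 RPKM) and Ccl4 (153 ± 11.7 RPKM), which overlapped with each other, and Ccl5 was at 44.8 ± 14.8 RPKM.

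Vehicle-treated GL261 tumors at 21 DPI were compared with naïve mice for chemokine expression in CD11b+ cells. The vehicle mice also had the implantation surgery and a pump that delivered water into the tumor. No group had surgery and pump without a tumor, so the tumor cannot be told apart from these. Of the 9 members 8 rose, while 34.6% of the 9728 genes tested rose and 82.9% changed in either direction. All 8 had groups that did not overlap, as had 35.6% of genes in that direction. The median difference was 2.01 for the members and −0.14 for all genes.

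Ccl5, which attracts T cells and NK cells, had the largest difference. It was at 1.02, 1.55 and 2.24 RPKM in naïve mice and at 271, 566 and 532 RPKM with vehicle, a difference of 7.41 ± 0.29 (adjusted p = 1.29e-07). Ccl8 was at 0.866, 2.21 and 2.39 RPKM in naïve mice and at 598, 236 and 28 RPKM with vehicle, a difference of 5.88 ± 0.95 (adjusted p = 0.000524). Its vehicle samples differed by more than those of any other member, but the lowest of them was still above all naïve samples.

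In the Ccr2 ligand group, Ccl2 was at 7.57, 5.72 and 5.36 RPKM in naïve mice and at 69.7, 37.5 and 57.9 RPKM with vehicle, and rose by 2.92 ± 0.22 (adjusted p = 4.15e-06). Ccl7 rose by 2.40 ± 0.27 (adjusted p = 6.06e-05), from 5.99 ± 1.55 to 37.4 ± 16.5 RPKM (SD, n = 3). Ccl12 rose by 2.01 ± 0.13 (adjusted p = 1.57e-06), from 32.3 ± 3.24 to 134 ± 22.9 RPKM. The groups of all of these were far apart, and Ccl12 had the smallest spread relative to its level.

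The members that were already high in naïve mice moved least. Ccl6 rose by 1.21 ± 0.22 (adjusted p = 0.00111), Ccl4 by 1.03 ± 0.12 (adjusted p = 5.34e-05) and Ccl9, another Ccr1 ligand, by 0.86 ± 0.25 (adjusted p = 0.0117). The call for Ccl9 was lost when no filter on low values was applied (adjusted p = 0.0954, the highest over its 17 alternatives, from 0.000307). Ccl3 was at 56.7, 56.9 and 57.8 RPKM in naïve mice and at 89.8, 49 and 42.6 RPKM with vehicle. One vehicle sample lay above all naïve samples and the others below them, and the difference was 0.00 ± 0.24 (95% CI −0.55 to 0.56, adjusted p = 0.991). Without vehicle replicate 1, which was the high one, Ccl3 was lower by −0.32 and passed the test (adjusted p = 0.00356, from 0.00356 to 1.0 over its 17 alternatives).

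In these bulk samples a change in the mix of cells and a change in RNA per cell cannot be told apart. Between naïve and vehicle samples, 10 of 10 microglial markers fell and 8 of 8 monocyte markers rose, with the summed monocyte level at 22.2 to 25.9 RPKM in naïve mice and 1015 to 1535 RPKM with vehicle. The summed level of 10 genes induced by tissue dissociation was 934 to 1071 RPKM in naïve mice and 2462 to 3228 RPKM with vehicle, and 6 of the 10 rose and 2 fell. The part of either in the chemokine values was not tested.

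**Figure D1:**
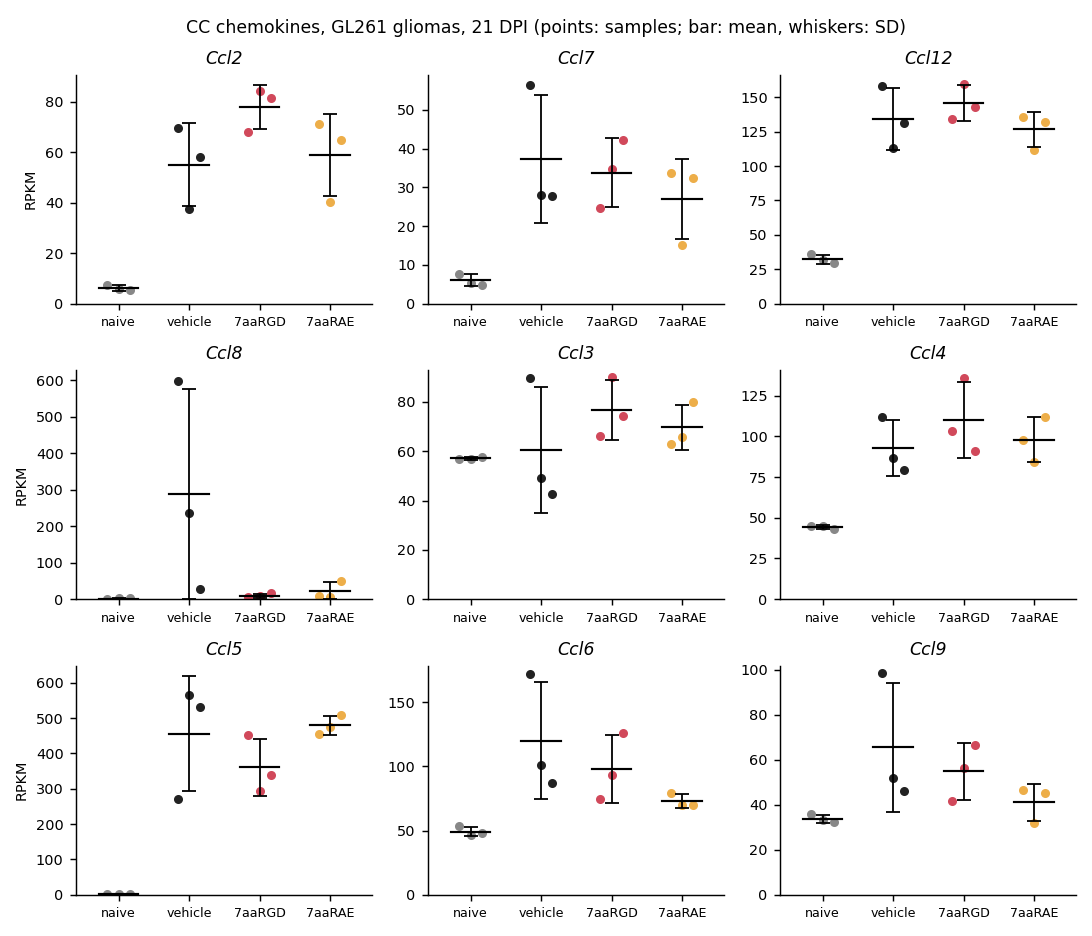
RPKM of the 9 members in CD11b+ cells of naïve mice and of GL261-bearing mice at 21 DPI, by group; points are samples (3 per group, 2 animals each), bars are means and whiskers SD, cut off at 0 where they would pass below it. Ccl5 went from 1.02 to 2.24 RPKM in naïve mice to 271 to 566 RPKM with vehicle, and the 3 vehicle samples of Ccl8 spread from 28 to 598 RPKM.

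The peptide groups at 21 DPI test whether blocking integrins changed these levels in GL261 tumors. Both peptides were compared with the same 3 vehicle samples. No member passed the test with 7aaRGD, with 7aaRAE or between the peptides, in 9441 genes of which 0.148%, 0% and 0% passed. By the same limma tests, 13.6%, 6.37% and 5.52% of genes had an unadjusted p under 0.05, as had 1, 2 and 0 members.

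The widest difference was that of Ccl8, a chemokine of the monocyte attracting group that also acts on T cells and eosinophils. With vehicle it was at 598, 236 and 28 RPKM, with 7aaRGD at 5.15, 8.08 and 15.9 RPKM and with 7aaRAE at 8.91, 5.08 and 51 RPKM. Every 7aaRGD sample was below every vehicle sample, as for 5.12% of all genes, while 1 of the 7aaRAE samples reached into the vehicle range. The difference from vehicle was −4.03 ± 1.08 with 7aaRGD (95% CI −6.45 to −1.61, adjusted p = 0.195) and −3.45 ± 1.08 with 7aaRAE (95% CI −5.87 to −1.04, adjusted p = 0.718). Without vehicle replicate 3, the low one, the first passed the test at −5.26 (adjusted p = 0.0299, with 0.0299 to 0.553 over its 18 alternatives). Between the peptides Ccl8 differed by −0.58 ± 1.08 (95% CI −2.99 to 1.84), so a sizeable difference in either direction is within the interval.

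Macrophage markers were also higher in the vehicle samples, in all of them for tumor macrophages and in replicates 1 and 2 for border-associated macrophages, the resident macrophages of the brain's surfaces. The summed level of 8 markers of tumor macrophages was 3467, 4029 and 2924 RPKM in the vehicle samples, 2200 to 2407 RPKM with 7aaRGD and 2398 to 2725 RPKM with 7aaRAE. That of 7 markers of border-associated macrophages was 179, 99.4 and 58.7 RPKM in the vehicle samples, in the same order as Ccl8. The tumor macrophage sum did not follow that order. With 7aaRGD the border-associated sum was 63.1 to 87.2 RPKM, with 7aaRAE 54.7 to 68.4 RPKM and in naïve mice 57 to 85 RPKM. No tested marker of either list passed the test with either peptide. The part of these cells in the Ccl8 values was not tested.

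For the other 8 members the differences from vehicle lay between −0.65 and 0.53 with either peptide. Ccl2 was at 68, 84.3 and 81.4 RPKM with 7aaRGD against 69.7, 37.5 and 57.9 RPKM with vehicle, and the groups overlapped, with a difference of 0.53 ± 0.25 (95% CI −0.02 to 1.09, adjusted p = 0.384). Ccl5 was at 451, 295 and 338 RPKM with 7aaRGD and at 455, 475 and 509 RPKM with 7aaRAE, and these groups did not overlap, as for 3.54% of genes in that direction. The difference between the peptides was −0.43 ± 0.26 (95% CI −1.01 to 0.15, adjusted p = 0.992). Ccl6 was at 79.2, 69.9 and 69.7 RPKM with 7aaRAE, below the vehicle samples at 172, 101 and 86.6 RPKM, as for 6.49% of genes, with a difference of −0.65 ± 0.25 (95% CI −1.20 to −0.09, adjusted p = 0.718).

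At 28 DPI, 7aaRGD was combined with PD-1 blockade to ask whether the pair changed the myeloid cells more than either alone. Against vehicle, 2 members rose with 7aaRGD, 4 with aPD-1 and 5 with the combination, and none fell. The share of all 9737 genes that rose was 0.123%, 10.8% and 17.5%, and 0.647%, 23.1% and 43.3% changed in either direction. The median difference over the 9 members was 0.41, 1.07 and 0.75, against 0.015 (7aaRGD) to −0.05 (combination) over all genes. These 3 comparisons share the vehicle samples.

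**Figure D2:**
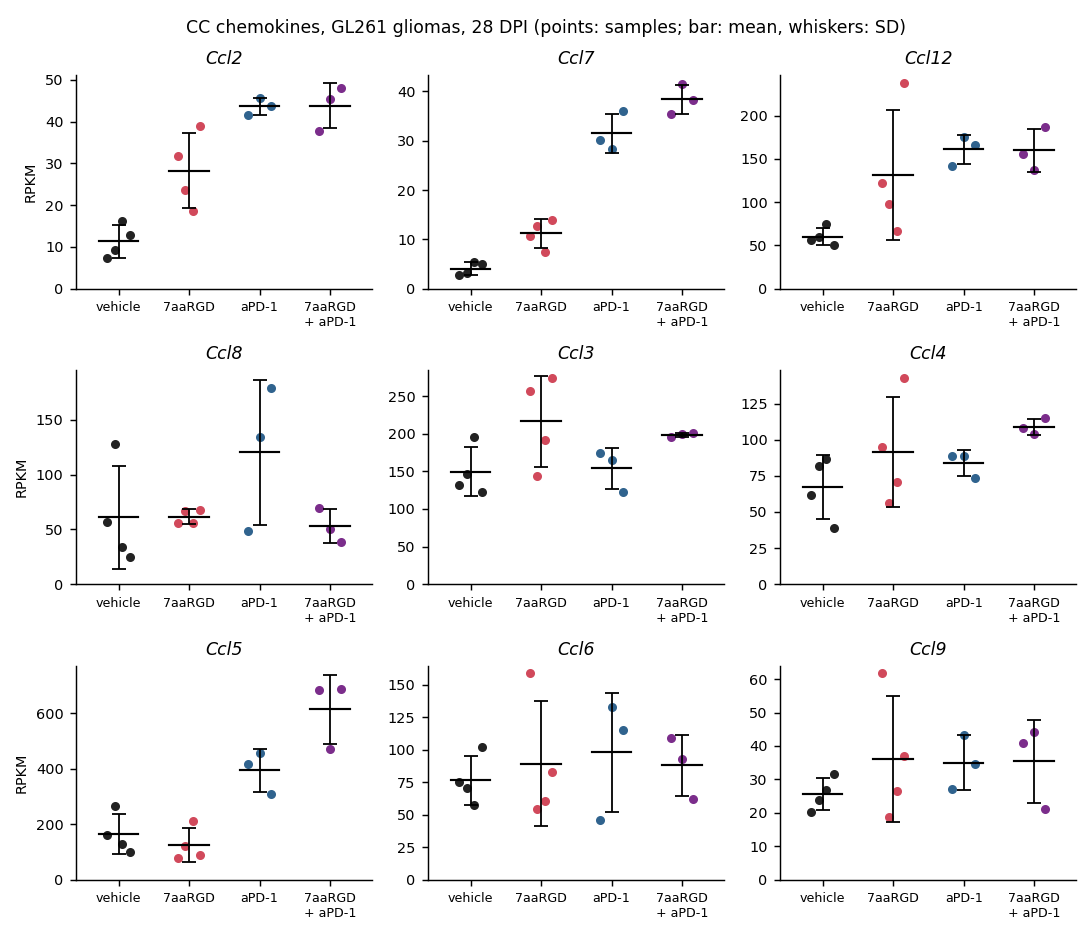
RPKM of the 9 members in CD11b+ cells of GL261-bearing mice at 28 DPI, by treatment; points are samples (1 animal each, 4 with vehicle and 7aaRGD, 3 with aPD-1 and 7aaRGD + aPD-1), bars are means and whiskers SD. Ccl7 went from 2.68 to 5.4 RPKM with vehicle to 7.39 to 14 RPKM with 7aaRGD, 28.3 to 36 RPKM with aPD-1 and 35.5 to 41.5 RPKM with both.

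The Ccr2 ligand Ccl7 had the largest rise. It was at 2.68, 3.18, 5.4 and 4.94 RPKM with vehicle, at 10.7, 12.8, 7.39 and 14 RPKM with 7aaRGD, at 30.2, 28.3 and 36 RPKM with aPD-1 and at 35.5, 41.5 and 38.2 RPKM with the combination. The first 3 groups were separated without overlap, and the last 2 met at their edges. Against vehicle the differences were 1.28 ± 0.19 (adjusted p = 0.0318), 2.72 ± 0.21 (adjusted p = 2e-05) and 3.00 ± 0.21 (adjusted p = 8.3e-07).

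Ccl2, the main chemokine that brings monocytes from the blood, was at 7.29, 9.15, 16.2 and 12.8 RPKM with vehicle and at 31.8, 23.6, 18.7 and 39 RPKM with 7aaRGD. With aPD-1 it was at 41.6, 45.6 and 43.7 RPKM and with the combination at 37.8, 45.5 and 48.1 RPKM. All treated samples were above all vehicle samples, and the 7aaRGD samples spread more than those with aPD-1. The differences from vehicle were 1.25 ± 0.23 with 7aaRGD (adjusted p = 0.0342), 1.91 ± 0.25 with aPD-1 (adjusted p = 0.00027) and 1.91 ± 0.25 with the combination (adjusted p = 5.65e-05). Groups without overlap in this direction were seen for 3.96%, 15.4% and 20% of all genes.

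The 7aaRGD calls for Ccl2 and Ccl7 lie close to the threshold. Over 19 alternatives Ccl2 passed in 6, with adjusted p between 0.0233 and 0.135, and Ccl7 in 8, with adjusted p between 0.018 and 0.121. The difference stayed above 0 in all of them, from 1.02 to 1.43 for Ccl2 and from 0.84 to 1.47 for Ccl7. Without any 1 of the 8 vehicle and 7aaRGD samples, neither gene passed, except Ccl7 without 7aaRGD replicate 3.

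Ccl12 was at 56.4, 59.2, 74.2 and 50.4 RPKM with vehicle and at 122, 97.4, 66.1 and 238 RPKM with 7aaRGD, where 1 sample fell within the vehicle range (0.97 ± 0.28, adjusted p = 0.141). With aPD-1 it was at 142, 175 and 166 RPKM and with the combination at 155, 137 and 187 RPKM, all above the vehicle samples. It rose by 1.42 ± 0.30 with aPD-1 (adjusted p = 0.0053) and by 1.40 ± 0.30 with the combination (adjusted p = 0.00244).

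Ccl5 passed the test with aPD-1 and with the combination and not with 7aaRGD alone, which was not compared with aPD-1 directly. It was at 162, 266, 128 and 101 RPKM with vehicle and at 79.2, 120, 211 and 89 RPKM with 7aaRGD, and these groups overlapped (−0.41 ± 0.31, 95% CI −1.09 to 0.27, adjusted p = 0.566). It was at 418, 458 and 309 RPKM with aPD-1 and at 685, 471 and 687 RPKM with the combination, and the lowest combination sample was above the highest aPD-1 sample. Against vehicle it rose by 1.34 ± 0.34 with aPD-1 (adjusted p = 0.0133) and by 1.97 ± 0.34 with the combination (adjusted p = 0.000511). The aPD-1 call for Ccl5 was lost with no filter (adjusted p = 0.0562) and without aPD-1 replicate 2 (adjusted p = 0.0586), within 0.00547 to 0.0586 over its 18 alternatives.

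Ccl4 was at 61.4, 82.1, 86.7 and 38.9 RPKM with vehicle and at 108, 104 and 115 RPKM with the combination, all above vehicle. It passed the test only just, at 0.75 ± 0.29 (adjusted p = 0.0497), and in 8 of 18 alternatives, with adjusted p between 0.0313 and 0.139. Leaving out vehicle replicate 1 or 4 or any combination sample ended the call. Ccl3, its neighbor, was at 132, 147, 196 and 123 RPKM with vehicle and at 195, 199 and 201 RPKM with the combination, and the ranges met (0.43 ± 0.21, 95% CI −0.02 to 0.88, adjusted p = 0.111). It passed without vehicle replicate 3, the highest of its group (0.57, adjusted p = 0.0409, with 0.0368 to 0.248 over its 18 alternatives). With the RGD peptide alone Ccl3 was at 257, 144, 191 and 274 RPKM and overlapped with vehicle. That difference, 0.513 ± 0.192 (adjusted p = 0.244), was larger than with the combination, and neither passed with all samples. With aPD-1 it was 0.053 ± 0.208 (adjusted p = 0.881). Ccl4 differed from vehicle by 0.411 ± 0.267 with the RGD peptide alone and by 0.369 ± 0.288 with aPD-1 (adjusted p = 0.487 and 0.378).

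Ccl8, Ccl6 and Ccl9 did not pass the test in any comparison at 28 DPI. Ccl8 was at 57.1, 128, 34 and 24.4 RPKM with vehicle, at 48.3, 134 and 179 RPKM with aPD-1 and at 69.4, 50.6 and 38.4 RPKM with the combination. With the RGD peptide alone it was at 56, 67.2, 55.4 and 67.7 RPKM, all within the vehicle range. The difference from vehicle was 0.295 ± 0.454 (95% CI −0.683 to 1.272, adjusted p = 0.8). Ccl8 spread widely with vehicle and with aPD-1. The difference with aPD-1 was 1.07 ± 0.49 (95% CI 0.01 to 2.12, adjusted p = 0.135). That difference passed the test without vehicle replicate 2 (1.51, adjusted p = 0.0243) or without aPD-1 replicate 1 (1.62, adjusted p = 0.033), within 0.0243 to 0.39 over its 18 alternatives. The Ccl6 and Ccl9 groups overlapped in all comparisons, and their differences from vehicle lay between 0.12 and 0.43.

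**Figure D3:**
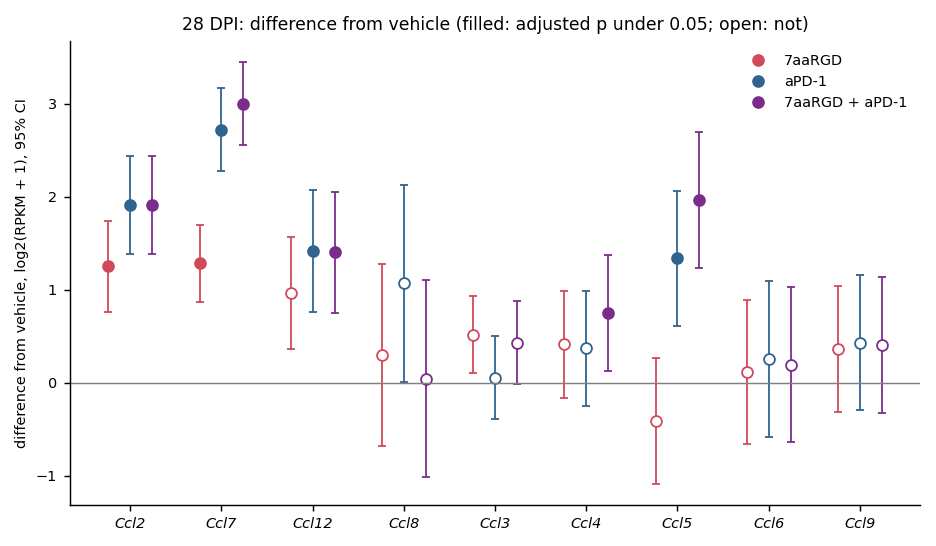
Difference of each treated group from vehicle at 28 DPI on the log2(RPKM + 1) scale, for the 9 members; points are limma estimates, whiskers 95% confidence intervals, and filled points have an adjusted p under 0.05. Ccl2, Ccl7, Ccl12 and Ccl5 passed with aPD-1, at 1.34 to 2.72, and Ccl2 and Ccl7 with 7aaRGD, at 1.25 and 1.28.

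Adding aPD-1 to 7aaRGD raised 3 members, while 13% of all genes rose and 36.6% changed in either direction. Ccl5 rose by 2.38 ± 0.34 (adjusted p = 0.000236) and Ccl7 by 1.72 ± 0.21 (adjusted p = 7.18e-05), both without overlap, as for 14.5% of genes. Ccl2 rose by 0.66 ± 0.25 (adjusted p = 0.0494) with overlapping groups, and passed in 7 of 18 alternatives, with adjusted p between 0.0188 and 0.142. Leaving out any combination sample, or 7aaRGD replicate 1, 2 or 3, ended that call. Without 7aaRGD replicate 4, the high one, Ccl12 rose by 0.77 (adjusted p = 0.0117) instead of 0.43 ± 0.30 (adjusted p = 0.282), within 0.0117 to 0.656 over its 18 alternatives.

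Adding 7aaRGD to aPD-1 called no member, with 0.0411% of all genes passing and 15% at an unadjusted p under 0.05, against 0 members. Ccl2 and Ccl12 differed by −0.00 ± 0.26 (95% CI −0.57 to 0.56) and −0.02 ± 0.32 (95% CI −0.72 to 0.68). Ccl3, Ccl4 and Ccl5 were higher in every combination sample than in every aPD-1 sample, as were 6.23% of genes, by 0.38 ± 0.22, 0.38 ± 0.31 and 0.63 ± 0.36 (adjusted p = 0.452, 0.597 and 0.436). Ccl8 differed the other way, by −1.02 ± 0.52 (95% CI −2.15 to 0.11, adjusted p = 0.382), with groups that overlapped.

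The difference between the effect of 7aaRGD with and without aPD-1 was tested as an interaction term, which called 0 of 9737 genes. For Ccl2 it was −1.25 ± 0.35 (unadjusted p = 0.00301, adjusted p = 0.588 by limma) and for Ccl7 −0.998 ± 0.294 (unadjusted p = 0.00457, adjusted p = 0.588), so the difference with both treatments was smaller than the sum of the single differences. For Ccl12 it was −0.98 ± 0.43 (adjusted p = 0.602) and for Ccl8 −1.318 ± 0.694 (adjusted p = 0.634), the largest term of the 9 members and the one with the largest SE. The terms of Ccl3, Ccl4, Ccl6 and Ccl9 lay between −0.388 and −0.031. For Ccl5 the term had the other sign, at 1.04 ± 0.48 (unadjusted p = 0.0483, adjusted p = 0.608 by limma). None held after adjustment.

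Receptors of these chemokines were measured in the same cells. Ccr1, Ccr2 and Ccrl2, a receptor that binds chemokines without signaling like the others, passed the filter in each comparison, and Ackr2, a scavenger of CC chemokines, was under 0.05 RPKM in every sample. From naïve to vehicle at 21 DPI, Ccr1 rose from 9.08 ± 0.704 to 177 ± 21.1 RPKM, Ccr2 from 5.8 ± 0.174 to 81.9 ± 14 RPKM and Ccrl2 from 8.59 ± 0.0992 to 109 ± 17.9 RPKM (SD, n = 3). These rises, of 3.51 to 4.14, all passed the test.

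At 28 DPI none of these 3 receptors passed with 7aaRGD, while Ccr2 rose with aPD-1, by 1.16 ± 0.35 (adjusted p = 0.029). With the combination, Ccr2 rose by 1.30 ± 0.35 (adjusted p = 0.00843) and Ccrl2 by 0.73 ± 0.28 (adjusted p = 0.049), and Ccr1 fell by 0.60 on the log2 scale (adjusted p = 0.0425).

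Genes that induce CC chemokines were measured as well. Of 13 inducers (NF-kB subunits, their cytokines and interferon factors), 10 passed the filter at 28 DPI, and 0 rose with 7aaRGD, 6 with aPD-1 and 7 with the combination, with medians of 0.04, 0.59 and 1.09. The share of all genes that rose in these comparisons was 0.123%, 10.8% and 17.5%. Nfkb2, an NF-kB subunit, rose by 0.80 ± 0.13 with aPD-1 (adjusted p = 0.000991) and by 1.16 ± 0.13 with the combination (adjusted p = 1.86e-05). Rela and Myd88 did not pass with either. Of 5 feedback inhibitors of NF-kB, 2 rose with aPD-1 and 3 with the combination, among them Nfkbie and Tnip1 with both, while Nfkbia and Tnfaip3 did not pass.

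Of 12 other CC chemokines, Ccl17, Ccl22 and Ccl24 passed the filter in GL261 tumors, and Ccl20 and Ccl21a were under 0.05 RPKM in every sample. Ccl22, which attracts T cells through Ccr4, was at 1.27 ± 0.506 RPKM with vehicle at 28 DPI (SD, n = 4) and rose to 4.79 ± 2.97 RPKM with aPD-1 (adjusted p = 0.0158) and 13.4 ± 1.29 RPKM with the combination (adjusted p = 4.14e-05; SD, n = 3). Ccl17, a ligand of the same receptor, rose with the combination, from 7.3 ± 4 to 25 ± 11.6 RPKM (adjusted p = 0.0248). Of 8 markers of dendritic cells, which make both of these, 3 passed the filter. Of these, 2 rose with aPD-1 and 3 with the combination, as did 10.8% and 17.5% of all genes. The part of dendritic cells was not tested. Ccl24, an eosinophil chemokine, ranged from 6.28 to 427 RPKM in the vehicle samples at 21 DPI, a spread like that of Ccl8.

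Markers of other cells also moved at 28 DPI. Of all genes, 0.123% rose with 7aaRGD, 10.8% with aPD-1 and 17.5% with the combination. Of 10 microglial markers, 1 rose with 7aaRGD, 2 with aPD-1 and 6 with the combination. Of 8 monocyte markers, 0 rose with 7aaRGD, 5 with aPD-1 and 5 with the combination, and their summed level was 108 to 172 RPKM with vehicle, 144 to 230 RPKM with 7aaRGD, 305 to 362 RPKM with aPD-1 and 359 to 491 RPKM with the combination. The part of monocytes in the values of Ccl2, Ccl7 and Ccl12 was not tested. The summed level of 8 NK and cytotoxic cell markers, cells that make Ccl5 themselves, was 4.06 to 13.6 RPKM with vehicle, 58.7, 75.1 and 5.44 RPKM in the aPD-1 samples and 32.3 to 93.1 RPKM with the combination. Ccl5 in the same aPD-1 samples was at 418, 458 and 309 RPKM, and the part of NK and cytotoxic cells in it was not tested. The summed level of the dissociation genes was 926 to 1195 RPKM with vehicle, 818 to 1107 RPKM with 7aaRGD, 788 to 1155 RPKM with aPD-1 and 1107 to 1417 RPKM with the combination. Of these 10 genes, 0 rose with 7aaRGD, 1 with aPD-1 and 6 with the combination, and 1 fell with the combination. Their part in the chemokine values was not tested.

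In U87-MG tumors of nude mice no member passed with 7aaRGD, with 7aaRAE or between the peptides. Of 9665 genes, 0%, 0.0103% and 0% passed, and by limma 3.77%, 7.72% and 3.38% had an unadjusted p under 0.05, as had 4, 5 and 1 members. Groups without overlap were seen for 2 members with 7aaRGD and 4 with 7aaRAE, against 10.8% and 16.5% of all genes.

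Both peptides were again compared with the same 3 vehicle samples. Ccl8 was at 18.4, 11.3 and 17 RPKM with vehicle, at 4.79, 6.91 and 8.62 RPKM with 7aaRGD and at 7.59, 4.91 and 6.92 RPKM with 7aaRAE, so that every peptide sample was below every vehicle sample. The differences were −1.10 ± 0.23 (95% CI −1.62 to −0.57, adjusted p = 0.941) and −1.14 ± 0.23 (95% CI −1.66 to −0.61, adjusted p = 0.202), and neither passed the test. Between the peptides it differed by 0.04 ± 0.23 (95% CI −0.48 to 0.57).

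Ccl4 went the other way, at 163, 140 and 157 RPKM with vehicle, 175, 211 and 223 RPKM with 7aaRGD and 234, 187 and 208 RPKM with 7aaRAE. Both peptide groups were above the vehicle samples, by 0.40 ± 0.12 (adjusted p = 0.941) and 0.45 ± 0.12 (adjusted p = 0.399). Ccl3 was at 186, 120 and 181 RPKM with vehicle and 228, 342 and 240 RPKM with 7aaRAE, and Ccl6 at 32.6, 31.2 and 31 RPKM with vehicle and 43.2, 45.3 and 40.9 RPKM with 7aaRAE, both apart, by 0.73 ± 0.26 (adjusted p = 0.543) and 0.44 ± 0.09 (adjusted p = 0.246). The dissociation genes summed to 1568 to 2179 RPKM with vehicle, 2138 to 3314 RPKM with 7aaRGD and 2077 to 2947 RPKM with 7aaRAE. The monocyte markers summed to 75.9 to 87.2 RPKM with vehicle, 63.4 to 111 RPKM with 7aaRGD and 42 to 56.3 RPKM with 7aaRAE, and the NK and cytotoxic markers to 8.73 to 24.9, 1.74 to 8.35 and 0.419 to 2.54 RPKM. No marker of these lists passed the test in U87-MG tumors, and their part in the chemokine values was not tested.

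**Figure D4:**
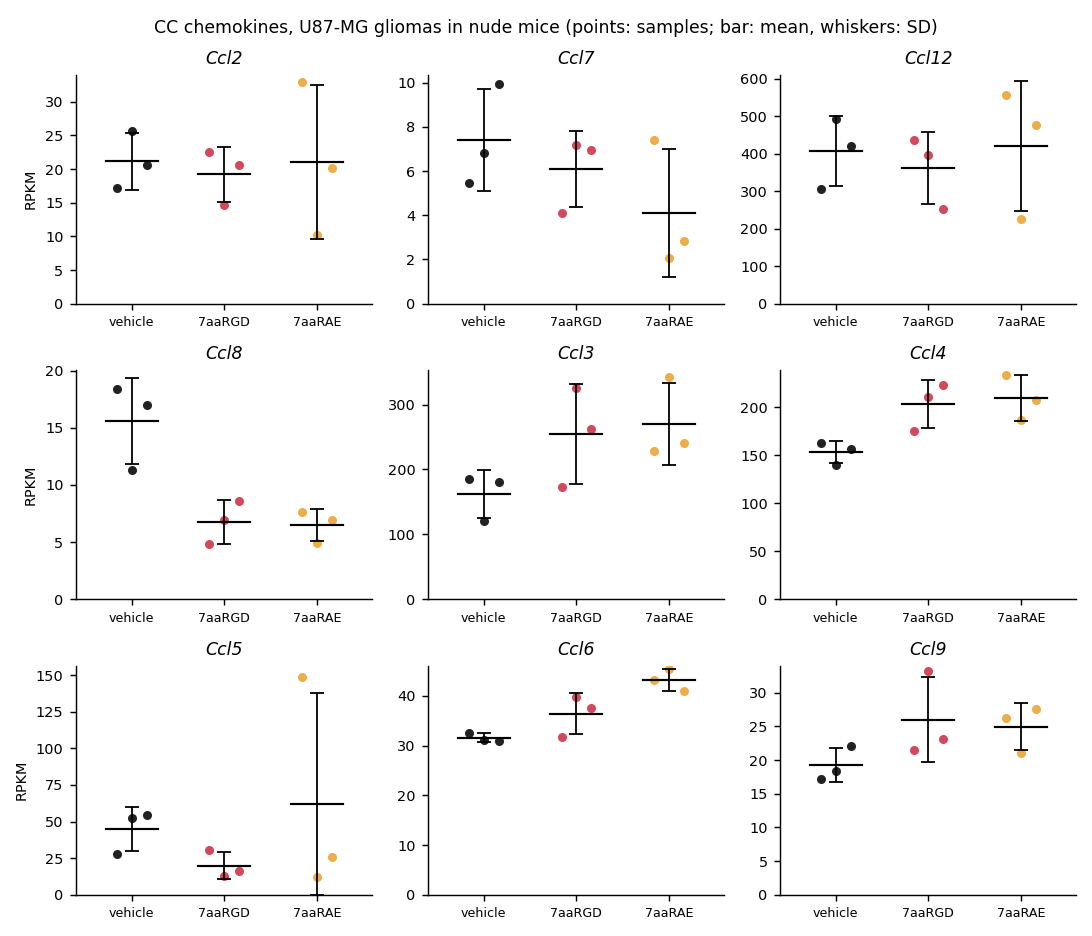
RPKM of the 9 members in CD11b+ cells from U87-MG tumors in nude mice, by treatment; points are samples (3 per group, 2 animals each), bars are means and whiskers SD, cut off at 0 where they would pass below it. Ccl12 was the highest member with vehicle, at 307 to 492 RPKM, and Ccl8 was at 11.3 to 18.4 RPKM with vehicle and 4.79 to 8.62 RPKM with either peptide.

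Of the 9 members Ccl5 varied most among the U87-MG samples. It was at 27.8, 52.2 and 54.5 RPKM with vehicle, 30.3, 13 and 16.4 RPKM with 7aaRGD and 149, 11.9 and 25.9 RPKM with 7aaRAE, where 1 sample stood far above the other two. The difference from vehicle was −1.16 ± 0.76 with 7aaRGD (95% CI −2.88 to 0.56) and −0.23 ± 0.76 with 7aaRAE (95% CI −1.95 to 1.48). Between the peptides no member passed, and Ccl6 alone had groups that did not overlap (36.4 ± 4.06 RPKM with 7aaRGD and 43.1 ± 2.21 RPKM with 7aaRAE, a difference of −0.25 ± 0.09), as had 3.01% of genes in that direction. Ccl12 spread from 226 to 558 RPKM over the 7aaRAE samples, and Ccl2 from 10.2 to 32.9 RPKM.

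The likeness of the members' levels was described over the tumor-bearing samples of each table. Pearson's r of log2(RPKM + 1) was computed within each table (9 samples at 21 DPI, 14 at 28 DPI and 9 for U87-MG) and averaged over the 3. These samples differ in treatment, and pairs share their libraries, so the values are a description. Ccl2 and Ccl12 had a mean r of 0.86 (0.90, 0.92 and 0.76), Ccl3 and Ccl4 one of 0.79 (0.83, 0.80 and 0.74) and Ccl6 and Ccl9 one of 0.78 (0.95, 0.82 and 0.56). Ccl7 followed Ccl2 at 0.71. Other neighbors in the cluster had lower values, with a mean r of 0.41 for Ccl6 and Ccl3 (0.09 at 28 DPI), 0.155 for Ccl12 and Ccl8 and −0.29 for Ccl5 and Ccl9. The lowest of the 36 pairs was Ccl5 with Ccl3, at −0.48.

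Among the 8911 genes with at least 1 RPKM on average in each table, the closest to Ccl5 were Cfb, a complement factor (0.93), B2m, the light chain of MHC class I (0.92), and H2-Q7, an MHC class I gene (0.89). For Ccl12 the closest was Ccl2, for Ccl4 it was Ccl3, and Ccl6 and Ccl9 were closest to each other. The closest to Ccl3 were Mia3 (0.83), Ccl4 (0.79) and Klf4, a transcription factor (0.77), and the closest to Ccl2 were Ak1 (0.87), Alg8 (0.87) and Ccl12. For Ccl7 they were Afg1l, Mrrf and S100a4 (0.84 to 0.77). For Ccl8 the highest values were lower, at 0.68 for Strada, 0.67 for Gatm and 0.66 for Cd36, a fatty acid receptor.

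**Figure D5:**
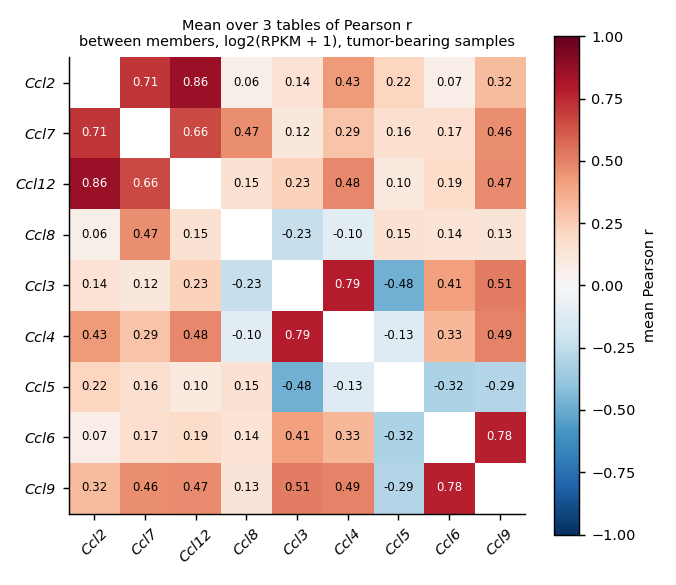
Mean over the 3 tables of Pearson's r between members, on log2(RPKM + 1) over tumor-bearing samples (9, 14 and 9); rows and columns are genes, and color and number give the mean r. The pairs Ccl2 and Ccl12 (0.86), Ccl3 and Ccl4 (0.79) and Ccl6 and Ccl9 (0.78) stand out, and Ccl5 is negative with Ccl3 (−0.48).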

How the data were processed

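Per the study's methods, reads were trimmed (Trimmomatic) and mapped to mm10 (STAR), and the authors dropped reads of low mapping quality and counted the rest by strand with HTSeq 0.11.1. How many reads this cost closely related chemokine genes is not known. The deposited values are RPKM plus a constant of 2, which was read from the values: after subtraction, values multiplied by exonic length add up to 0.988 to 1.007 of the sum that RPKM must give. Values under that constant, 6.0% to 6.8% in each table, were set to 0. Replicate differences in both GL261 tables lacked 1 dimension (7 of 8 at 21 DPI and 9 of 10 at 28 DPI), so values had been altered after normalization. The step is not given in the sources used here.

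Gene names were matched to GENCODE (98.8% of rows, 21848 protein-coding). Differences were fitted on log2(RPKM + 1), a pseudocount of 1, with limma 3.58.1 (trend) in R 4.3.3, over protein-coding genes that averaged 1 RPKM or more, with Benjamini-Hochberg adjustment and a threshold of 0.05. The tumor-bearing groups of a table shared 1 fit, and naïve mice were fitted with vehicle. The plan had assumed normalized counts, and count tests were not used since reads cannot be recovered. The code was tested on simulated data. Alternatives were pseudocounts of 0.1 and 5, no filter or 5 RPKM, TMM and median-of-ratios factors, all named genes, other sets of groups in the fit, a replicate block, each sample left out and no trend. A fit with 1 residual degree of freedom less and the interaction term were chosen after seeing the data. All 9 members are named, other genes come from lists of receptors, inducers, inhibitors, other CC chemokines and cell markers, and the 3 closest genes to each member are by mean r. The members and lists were chosen with earlier results of these data known. Some genes of these lists are not reported here. Naïve nude mice and samples numbered 4 with aPD-1 and with the combination were not analysed here. The U87-MG columns carry no sample numbers, so samples of a group are not told apart by name. The columns of a group are taken as separate samples, and p-values measure the spread between them. In both GL261 tables this is the spread left after the alteration. The main fit kept all residual degrees of freedom, so p-values there may be too small. With 1 less, limma gave adjusted p of 0.0823 (Ccl2) and 0.079 (Ccl7) for 7aaRGD against vehicle at 28 DPI. For the combination it gave 0.0633 (Ccl4, against vehicle) and 0.064 (Ccl2, against 7aaRGD).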

Additional observations from a re-analysis of the deposited data

Results flagged for a closer look

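Ccl6 moved in opposite directions with 7aaRAE in the 2 tumor models. In GL261 tumors at 21 DPI every 7aaRAE sample was below every vehicle sample (a difference of −0.65 on the log2(RPKM + 1) scale), and in U87-MG tumors every 7aaRAE sample was above every vehicle sample (0.44). Neither difference passed the test within its own table, the tables were normalized separately, and the difference between the models was not tested. This was 1 of 36 pairs of the same comparison in 2 tables that were looked at. Of 18 groups of 4 samples at 28 DPI, no member had a sample far from the others by Dixon's test, although chance alone flags about 1 in 20 such groups.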

How the results depend on the processing

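Over all alternatives, of 206 counts of called members recomputed under an alternative, 192 stayed within 1.5 times the reported count, 13 were lower and 1 was higher. Most of the 206 are from comparisons in which no member was called, where a count of 0 that stayed 0 is included. The 192 therefore does not measure how stable the calls are. For 7aaRGD against vehicle at 28 DPI the count of 2 went to 1 with no filter and to 0 with TMM factors, with only the groups compared, and with 1 residual degree of freedom less, and ranged from 0 to 1 when a sample was left out. For 7aaRGD against vehicle at 21 DPI the count of 0 became 1 without vehicle replicate 3 (Ccl8), and was 0 without each other sample. Same-numbered samples were checked for pairing: at 21 DPI, 1 of 9 such pairs had residuals that correlated over 0.1, and at 28 DPI 3 of 19. The lowest r was −0.775, for vehicle and 7aaRGD replicate 1 at 21 DPI. The values of both GL261 tables had been altered, and a shared replicate effect could have been removed, so this check cannot settle whether samples were paired. With the replicate number as a block, the count for 7aaRGD at 28 DPI was 0 and that for the combination against vehicle 4, and the counts were 8 for vehicle against naïve, 4 for aPD-1, 3 for the combination against 7aaRGD and 0 in the other comparisons of the GL261 tables. No paired analysis was possible for U87-MG because its columns carry no numbers. When a sample was left out, 34 of the 108 differences of single members changed sign at least once, and none of these had passed the test. Among those that lay more than 1 SE from 0, Ccl6 changed sign for 7aaRGD at 21 DPI without vehicle replicate 1, with a range of −0.459 to 0.031 over the samples left out. Ccl5 did so between 7aaRGD and 7aaRAE in U87-MG without 1 of the 7aaRAE samples, with a range of −1.690 to 0.076. Where no value shows a cause, the cause was not tested. Scaling moved the median of all genes from −0.14 to −0.03 (TMM) and 0.01 (median of ratios) for vehicle against naïve, and the share of calls that were higher from 40.5% to 51% (TMM) for the combination against vehicle and from 35.6% to 50.3% for the combination against 7aaRGD. Depth is unknown, so counting error at low values such as Ccl8 and Ccl5 in naïve mice cannot be given.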
